A study of Bos taurus with 14 samples.

Results

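Small RNA libraries of peripheral white blood cells (PWBC) from 14 heifers were searched for 10 miRNAs best known from epithelium and liver. These were bta-miR-200a, bta-miR-200b, bta-miR-200c, bta-miR-141, bta-miR-429, bta-miR-205, bta-miR-122, bta-miR-192, bta-miR-194 and bta-miR-215. They were taken by mature name from the 1030 names of the count table, and a name with several rows was represented by the row with the highest total. The animals were Angus-Simmental crossbred heifers bled at weaning, with 1 library per heifer. The fertile group (FH, n = 7) later became pregnant to artificial insemination, and the subfertile group (SFH, n = 7) carries the label of not being pregnant to it. By the methods of the study, SFH heifers had also not conceived in the natural service season that followed, which the label does not state. Each group is made of different animals, so no pairing exists.

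The miR-200 family keeps epithelial cells epithelial by repressing the transcription factors ZEB1 and ZEB2. Its members fall into a seed group of miR-200b, miR-200c and miR-429 and another of miR-200a and miR-141. They come from a cluster of miR-200b, miR-200a and miR-429 and from a separate cluster of miR-200c and miR-141. miR-205 marks stratified epithelium and also acts on ZEB1 and ZEB2. miR-122 is the dominant miRNA of hepatocytes, where it acts in lipid metabolism. miR-192, miR-194 and miR-215 are abundant in liver, gut and kidney, lie in paired clusters and respond to p53.

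Total counts per heifer ran from 1754971 to 5468341, with a median of 3319368 in FH and 2663375 in SFH. CPM, the counts scaled to a common library total, were taken over the 341 miRNAs that passed the expression filter, which is the scale of the deposited normalized table. On that scale a count of 0 allows up to 3 counts, or between 0.549 CPM in FH heifer 27 and 1.71 CPM in FH heifer 24. This floor is a one-sided limit, and the two-sided 95% Poisson intervals given for single values would end at 3.69 counts for a count of 0. Floors and intervals cover counting error only, because the reads of an amplified library are not independent molecules.

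Leukocyte miRNAs dominated the marker lists. The list of miR-142, miR-223, miR-150, miR-155, miR-146 and miR-342 held 8 names, and 8 of 8 had counts in every heifer. Their summed level had a median of 119000 CPM over the 14 heifers, with a lowest value of 73900 in SFH heifer 21 and a highest of 163000 in SFH heifer 30. The most abundant was bta-miR-150, a lymphocyte miRNA, with a median of 67000 CPM. The 10 epithelial and liver members together summed to a median of 1200 CPM, from 660 in FH heifer 25 to 1410 in FH heifer 22. In these bulk libraries fewer cells of a type and less RNA per cell cannot be told apart.

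Detection split the members sharply. miR-192, miR-194, miR-200c and miR-215 had counts in all 14 heifers, although miR-215 had 2 counts in FH heifer 25, under the floor of 3. miR-200a, miR-200b, miR-141, miR-205 and miR-122 had counts in 1 to 4 heifers. miR-429 had 0 counts in every heifer. In the cluster of miR-200c and miR-141 the partners differed, since miR-200c was present in every library and miR-141 in 2 of 14.

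miR-200c stood for nearly all of the miR-200 family. Of 7649 family counts over the 14 heifers, 7597 belonged to miR-200c, which is 99.32%, and 52 to the other 4 members. The share of miR-200c within a heifer was lowest in FH heifer 27, at 96.7%, and 9 of 14 heifers had no count for any other member. By total count miR-200c ranked 128 of the 614 names with a count in any heifer, and its median of 173 CPM ranked 127 of the 341 retained miRNAs.

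In FH the level of miR-200c had a lowest value of 149 CPM, a median of 169 and a highest of 249. In SFH it had a lowest value of 54.9 CPM, a median of 176 and a highest of 230. FH heifer 25 was highest and SFH heifer 28 was lowest by a wide gap, while the other heifers of the groups overlapped. The FH mean was 185 ± 12.8 CPM and the SFH mean 164 ± 20.9 CPM (SE of the mean, n = 7 each). The log2 fold change of SFH relative to FH was −0.25 (SE 0.29, edgeR adjusted p = 0.947). The difference in mean log2 level was −0.33 (two-sided exact permutation p = 0.287). Without SFH heifer 28 the log2 fold change was −0.10, and without FH heifer 25 it was −0.16.

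SFH heifer 28 was not shallow, with 3077019 counts, and its 169 miR-200c counts have a 95% counting interval of 144 to 196. The same heifer ranked second of 14 for miR-194 and for miR-215. Its summed leukocyte markers were 126000 CPM, and its summed red cell markers 3420 CPM. The part of any of these in its low miR-200c was not tested.

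The other members of the family gave 52 counts in all. miR-200b, which shares its seed with miR-200c, had 18 counts in FH heifer 27, 11 in SFH heifer 21, 2 in FH heifer 29 and 1 in SFH heifer 26. In CPM the 18 counts were 3.29, with a 95% Poisson interval of 1.95 to 5.2, and the 11 counts were 4.13, with an interval of 2.06 to 7.39. Each group thus had 2 heifers with miR-200b and 5 without, and the difference in mean log2 level was 0.00 (two-sided exact permutation p = 1). With counts in 4 heifers, the miR-200b test could not pass the threshold even if all 4 were in 1 group. miR-141 had 13 counts in FH heifer 27 and 6 in FH heifer 24, and 0 in the 7 SFH heifers. The difference in its mean log2 level was −0.79 (two-sided exact permutation p = 0.462). With counts in 2 heifers of the same group, this is the smallest p that the permutation can give, so the test could not pass the threshold. With SFH at 0 the pseudocount sets the size of this difference, which was −1.40 at a pseudocount of 0.1 and −0.37 at 2, and it was −0.43 without FH heifer 24 and −0.49 without FH heifer 27. miR-200a had 1 count, in SFH heifer 21. With 1 count and 0 counts, miR-200a and miR-429 were given no permutation test.

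miR-205, the marker of stratified epithelium, had 3 counts, all of them in SFH heifer 28, which is 0.975 CPM there. At that depth 3 counts equal the limit that a count of 0 allows. No permutation test was made for miR-205, and an edgeR fit without the filter passed both thresholds on these 3 counts (adjusted p = 0.212).

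miR-122, the hepatocyte miRNA, was near 0. It had 22 counts in FH heifer 25, 6 in FH heifer 24, 6 in SFH heifer 26 and 4 in SFH heifer 21. The highest level was 4.65 CPM in FH heifer 25, with a 95% Poisson interval of 2.91 to 7.04. Each group had 2 of 7 heifers with miR-122, and both groups had a median of 0. The difference in mean log2 level was −0.27 (two-sided exact permutation p = 0.706). It turned to 0.07 without FH heifer 24 and to 0.15 without FH heifer 25. With counts in 4 heifers, the miR-122 test could not pass the threshold even if all 4 were in 1 group.

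**Figure D1:**
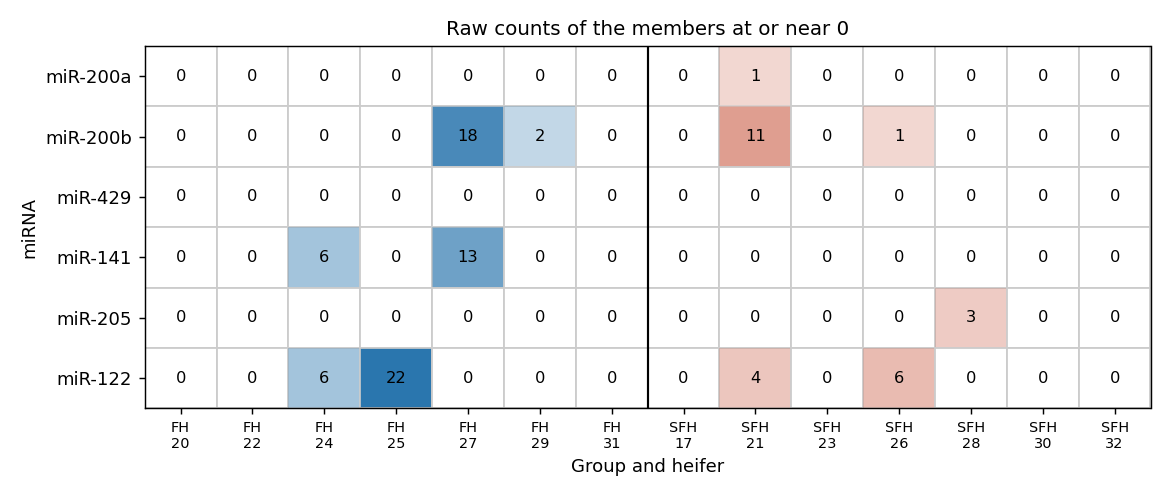
Raw counts of the 6 members at or near 0, with a row per miRNA and a column per heifer, FH on the left and SFH on the right. Counts sit in 7 of the 14 heifers, and the highest is 22 for miR-122 in FH heifer 25.

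The 5 sparse members with any count had 93 counts in all, in 4 FH and 3 SFH heifers. The 4 heifers with the most, FH heifers 24, 25 and 27 and SFH heifer 21, held 81 of them. SFH heifer 21 had 3 of the 5 members. FH heifers 27 and 25, with the highest totals of the series, carried 31 and 22 of the counts. FH heifer 29, which ranked 3 in total, carried 2, SFH heifer 30, which ranked 4, had 0, and FH heifer 24, with the lowest total, carried 12. The part of depth in these counts was not tested.

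miR-192 was the most abundant member by the rows used, though not when the 2 rows of miR-194 were summed. It had 20649 counts in total, ranking 93 of 614 names, and its median of 526 CPM ranked 89 of 341. In FH it had a lowest value of 220 CPM, a median of 473 and a highest of 700. In SFH it had a lowest value of 342 CPM, a median of 542 and a highest of 729. FH heifer 25 was lowest and SFH heifer 30 highest, followed by FH heifer 22, and the groups overlapped through most of their range. The FH mean was 463 ± 59.6 CPM and the SFH mean 535 ± 43 CPM (SE of the mean, n = 7 each). The log2 fold change was 0.16 (SE 0.23, edgeR adjusted p = 0.958), and the difference in mean log2 level 0.19 (two-sided exact permutation p = 0.439). Without FH heifer 25 these values were 0.04 and 0.03, and without SFH heifer 30 they were 0.06 and 0.10.

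miR-194, whose precursors lie beside those of miR-192 and miR-215, followed closely. In FH it had a lowest value of 186 CPM, a median of 394 and a highest of 595. In SFH it had a lowest value of 313 CPM, a median of 464 and a highest of 550. The lowest and the highest heifer were both FH, namely heifers 25 and 27, and the SFH range lay inside the FH range. The FH mean was 405 ± 53.2 CPM and the SFH mean 451 ± 26.8 CPM (SE of the mean, n = 7 each). The log2 fold change was 0.09 (SE 0.24, edgeR adjusted p = 0.977), and the difference in mean log2 level 0.16 (two-sided exact permutation p = 0.541). Without FH heifer 25 the log2 fold change turned to −0.03.

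The count table lists miR-194 on 2 rows, and the row used had 18391 counts against 9455 on the other. The other row held between 42.5% and 63% of the row used, and the row used was higher in 14 of 14 heifers. Both precursors give the same mature miRNA, so the split of reads between them is uncertain, and it is not known whether a read could be counted on both rows. Summed, the rows held 27846 counts, above the 20649 of miR-192, a sum taken after seeing the data. The related names bta-miR-194b and bta-miR-194b-3p had 53 counts each, in 4 heifers, with the same count in 14 of 14 heifers, and a further bta-miR-194b row had 0. No other arm or copy of a member's number was listed.

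miR-215 was the lowest and most variable of the 4 members found in every heifer. In FH it had a lowest value of 0.423 CPM, a median of 21.4 and a highest of 50.4. In SFH it had a lowest value of 6.79 CPM, a median of 26.8 and a highest of 75.9. SFH heifer 17 was highest and FH heifer 25 lowest, with 2 counts, and the other heifers of the groups overlapped. The FH mean was 23.4 ± 6.89 CPM and the SFH mean 35.5 ± 9.58 CPM (SE of the mean, n = 7 each). The log2 fold change was 0.49 (SE 0.74, edgeR adjusted p = 0.963), and the difference in mean log2 level 0.82 (two-sided exact permutation p = 0.407). Without FH heifer 25 the difference in mean log2 level was 0.15. The log2 fold change was 0.20 without SFH heifer 17, 0.27 without FH heifer 25 and 0.87 without FH heifer 29. The mature miR-215 is nearly identical in sequence to miR-192, so reads may have been divided between them in counting, and the level of the rarer miR-215 is uncertain.

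**Figure D2:**
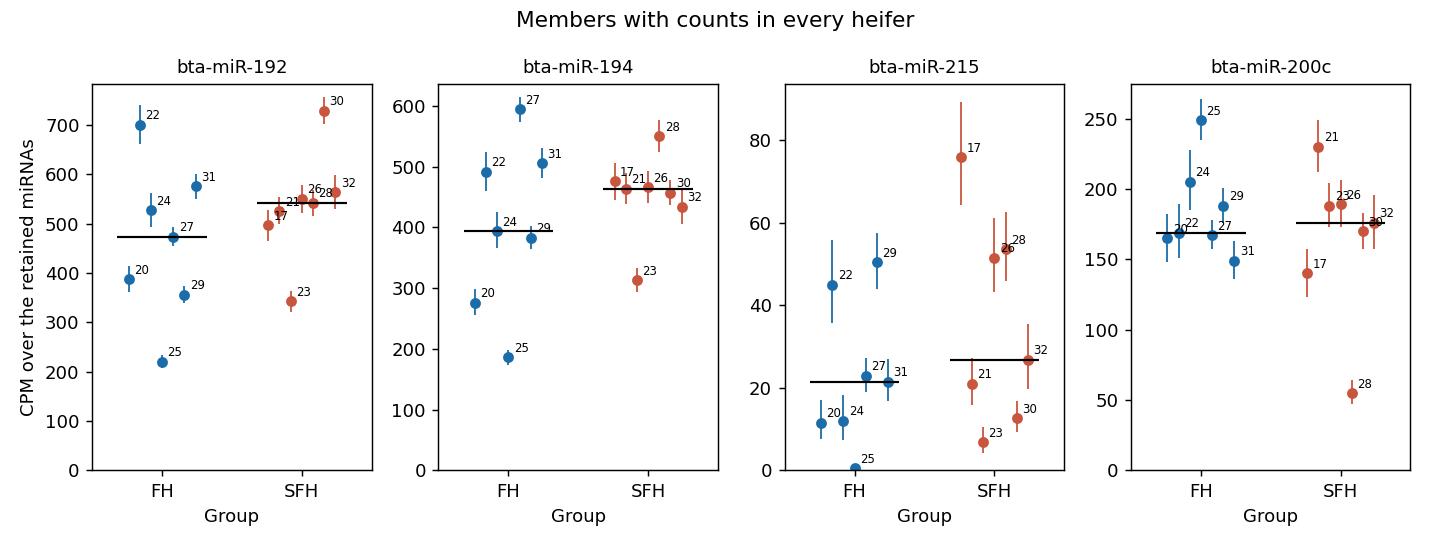
Level in CPM over the retained miRNAs of the 4 members with counts in every heifer, with a point per heifer, its number beside it, a 95% Poisson interval as a vertical line and the group median as a horizontal line. FH and SFH overlap in each panel, FH heifer 25 is lowest for miR-192, miR-194 and miR-215 and highest for miR-200c, and SFH heifer 28 is lowest for miR-200c at 54.9 CPM.

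Of the 4 members that passed the filter, 0 were called at a p-value of at most 0.05 with a log2 fold change of 0.5 or more in either direction, where 13 of 341 miRNAs, or 3.81%, were called by edgeR. At an adjusted p of at most 0.05, 0 of the 4 members and 0 of 341 miRNAs, or 0%, were called by edgeR, with 20 miRNAs at an unadjusted p of at most 0.05. By the same adjusted threshold DESeq2 called 2 miRNAs and limma-voom 0, and the members among them numbered 0. The median log2 fold change of all 341 miRNAs was 0.06. The 6 other members did not pass the filter and had no value in this fit. A p-value above the threshold does not show that the groups were equal.

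By the rows used, the order of the levels was miR-192, miR-194, miR-200c and miR-215. miR-192 had more counts than miR-194 in 11 of 14 heifers, and fewer in FH heifers 27 and 29 and SFH heifer 28. Their ratio had a median of 1.16 and ran from 0.795 to 1.59, so these neighbours differed by less than the spread between heifers. With both rows of miR-194 summed, the order turned: the median ratio was 0.756, and miR-194 was higher in 13 of 14 heifers, the exception being SFH heifer 30 at 1.07. miR-194 exceeded miR-200c in 13 of 14 heifers, the exception being FH heifer 25, with a median ratio of 2.47. miR-200c exceeded miR-215 in 14 of 14 heifers, with a median ratio of 7.13 and a lowest ratio of 1.02 in SFH heifer 28. The ratio of miR-192 to miR-215 was less steady, with a median of 23, a lowest value of 6.53 in SFH heifer 17 and a highest of 521 in FH heifer 25, where 2 miR-215 counts give an exact 95% counting interval of 144 to 4310.

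The spread of these 4 members between heifers is given beside the error from counting alone, while the error of library preparation was not measured. For miR-192 the coefficient of variation over 14 heifers was 27.5%, against 2.73% from counting at its median count. For miR-194 it was 25.7% against 3.03%, and for miR-200c 26% against 4.5%. miR-215 varied most, with 75.2% against 12.5%.

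FH heifer 25 stood apart in both directions. It ranked 14 of 14 for miR-192, miR-194 and miR-215 and 1 of 14 for miR-200c and also held the highest miR-122 count. Its library was the second deepest, with 4732913 counts, and was the library led by bta-let-7a-5p, at 9.4% of counts, where bta-miR-26a led the other 13. Its summed leukocyte markers were 102000 CPM, within the FH range of 82900 to 148000. Its summed miR-126 arms, the platelet and endothelial list, were 22.4 CPM, the lowest of FH and second lowest of the 14 after SFH heifer 23 at 4.52 CPM, which ranked 13, 12 and 13 for miR-192, miR-194 and miR-215. The part of these values in the levels of heifer 25 was not tested.

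Of 8 pairs of members fixed by cluster, seed or tissue, 3 had both members in at least 10 heifers. miR-192 and miR-194 varied together over the 14 heifers, with Pearson's r = 0.81 (permutation p = 0.0012, adjusted over the 3 pairs 0.0018) and Spearman's rho = 0.59 (permutation p = 0.0306, adjusted 0.0459). Without FH heifer 25 and SFH heifer 23, farthest from the median of miR-192, r was 0.44. Within FH r was 0.84 and within SFH 0.75.

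miR-194 and miR-215, neighbours in 1 of the clusters, had r = 0.83 (permutation p = 0.00097, adjusted 0.0018) and rho = 0.62 (permutation p = 0.0212, adjusted 0.0459). Without FH heifers 20 and 25, farthest from the median of miR-194, r was 0.57, and within FH and SFH it was 0.85 and 0.73. miR-192 and miR-215, the near-identical pair from separate clusters, had r = 0.69 (permutation p = 0.0122, adjusted 0.0122) but rho = 0.32 (permutation p = 0.266, adjusted 0.266). Without FH heifer 25 and SFH heifer 23 its r was −0.06, so that this relation rests on those heifers. Within FH and SFH its r was 0.84 and 0.29. For each pair the value within FH includes heifer 25. Without FH heifer 25 alone r was 0.61 for miR-192 with miR-194, 0.29 for miR-192 with miR-215 and 0.61 for miR-194 with miR-215. The values of a pair share a library and its scaling factor.

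**Figure D3:**
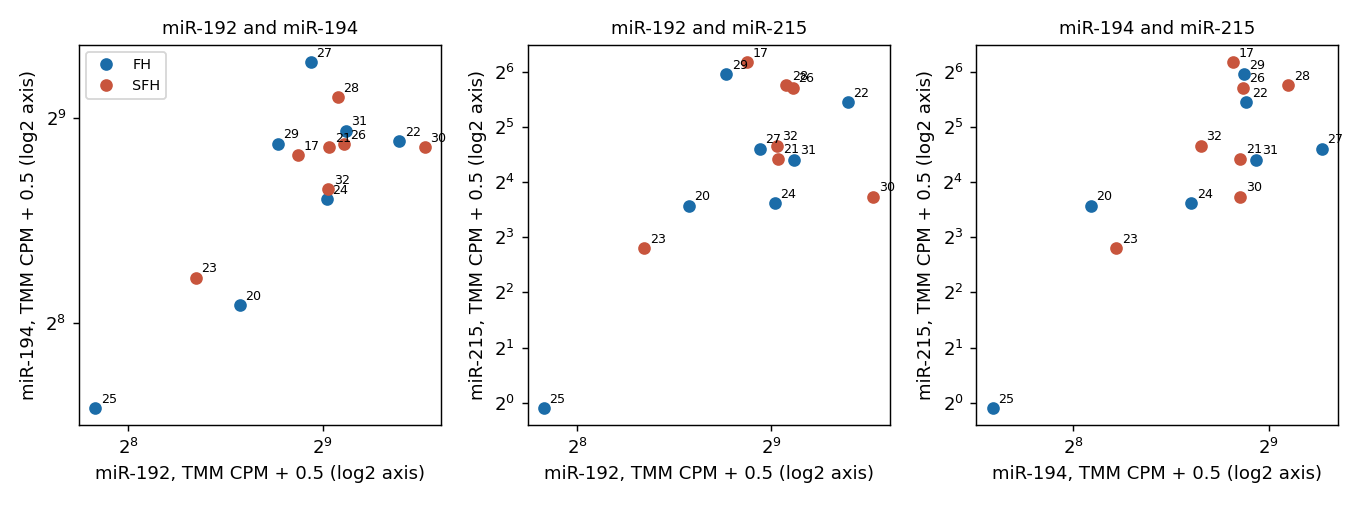
Level of miR-194 against miR-192, miR-215 against miR-192 and miR-215 against miR-194 in the 14 heifers, as TMM-normalized CPM plus 0.5 on log2 axes, with FH in blue and SFH in red and heifer numbers beside the points. FH heifer 25 lies at the lower left of each panel, and r is 0.81, 0.69 and 0.83 from left to right.

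In the RefSeq annotation of assembly ARS-UCD2.0, 10 of 10 members matched 11 precursor genes. MIR192 and MIR194-2 lie side by side within EHD1, and MIR215 and MIR194-1 side by side within IARS2. MIR141 and MIR200C both overlap LOC112446758 and are neighbours between PHB2 and PTPN6, the gene of a phosphatase of blood cells. MIR429, MIR200A and MIR200B form a run between TTLL10 and C16H1orf159. MIR205 and MIR122 had no other miRNA gene within 10 kb. Of the miRNA genes in the EHD1 and IARS2 clusters, the members were found in every heifer. MIR194B and MIR194B-2 also lie in these clusters, and bta-miR-194b had 53 counts, in 4 heifers. miR-141, beside the abundant miR-200c, had 19 counts in total.

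The miRNAs whose levels were most alike to the members over the 14 heifers, among the 341 retained, are given as a description without a test. For miR-192 they were bta-miR-29a (rho = 0.77), bta-miR-2285cj (0.72) and bta-miR-2285bn (0.71). For miR-194 they were bta-miR-29a (0.83), bta-miR-27a-3p (0.76) and bta-miR-340 (0.73), and for miR-215 bta-miR-7 (0.74), bta-miR-2285bc (0.71) and bta-miR-29a (0.67). bta-miR-29a thus stood among the nearest 3 for each of the liver and gut miRNAs. For miR-200c they were bta-miR-423-5p (0.84), bta-miR-760-3p (0.72) and bta-miR-328 (0.72), with 0 names shared with the lists of the other members.

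Among other epithelial miRNAs a single name was abundant. Of 11 names for miR-203, miR-31, miR-375, miR-34b, miR-34c, miR-449, miR-96, miR-182 and miR-183, 8 had counts in some heifer, 1 had counts in every heifer and 2 were tested. That name was bta-miR-375, best known from pancreatic islets and neuroendocrine and gut epithelium, with a median of 2510 CPM and a range of 1080 to 4870. Its log2 fold change was −0.12 (SE 0.29, edgeR adjusted p = 0.977). bta-miR-31 was found in 13 of 14 heifers with a median of 25.9 CPM and a log2 fold change of 0.10 (SE 0.81, edgeR adjusted p = 0.977). bta-miR-182 reached 20.2 CPM, bta-miR-183 20.8 CPM and bta-miR-34c 17.2 CPM, each with counts in 4 to 6 heifers. bta-miR-34b, bta-miR-449b and bta-miR-449c were at 0, and the table held no miR-203. The summed level of the list had a median of 2730 CPM in FH and 2320 CPM in SFH, with 0 called in either direction and a median log2 fold change of −0.01.

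Other liver miRNAs were few. Of 6 names for miR-885, miR-193 and miR-483, 4 had counts, 3 had counts in every heifer and were tested, and bta-miR-193a and bta-miR-483 were at 0, while the table held no miR-802. The most abundant was bta-miR-885, with a median of 112 CPM and a log2 fold change of 0.23 (SE 0.37, edgeR adjusted p = 0.963). The summed level had a median of 201 CPM in FH and 231 CPM in SFH, between 113 in FH heifer 29 and 490 in SFH heifer 32. FH heifer 25, with the lowest miR-192 and miR-194, had 172 CPM. The list had 0 calls and a median log2 fold change of 0.23 beside 0.06 over all miRNAs tested.

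Blood and tissue lists outside the leukocytes were also read. Of 3 red cell names 2 had counts, with bta-miR-144 at 0, and their sum had a median of 2290 CPM and a highest value of 9240 in SFH heifer 30. The platelet and endothelial miR-126 arms summed to a median of 35.1 CPM. Of 5 muscle names 4 had counts, bta-miR-133c being at 0, and the sum had a median of 6.44 CPM with 283 CPM in SFH heifer 21 and 86 CPM in FH heifer 20. SFH heifer 21, where 3 of the 5 sparse members were found, thus had the highest summed muscle miRNAs and the lowest summed leukocyte miRNAs of the 14. FH heifer 20, second for muscle, had 0 counts on the sparse members, and FH heifers 27 and 25, with the most such counts, had muscle sums of 2.74 and 5.71 CPM. FH heifer 27 had the second lowest summed leukocyte miRNAs, at 82900 CPM. Other sparse epithelial miRNAs were also counted in FH heifer 27 and SFH heifer 21, though not in these alone. FH heifer 27 had 39 counts of bta-miR-182, 34 of bta-miR-34c and 18 of bta-miR-449a. SFH heifer 21 had 23 counts of bta-miR-182, 16 of bta-miR-34c and 4 of bta-miR-96. In FH heifer 27, the deepest library, bta-miR-31 was 7.68 CPM, and bta-miR-183 and bta-miR-96 had 0 counts. The other epithelial list without bta-miR-375 summed to 24.3 CPM in FH heifer 27 and 70.6 CPM in SFH heifer 21. That sum was 72.8 CPM in FH heifer 22 and 69.6 CPM in FH heifer 31. The highest bta-miR-34c count was 57 in FH heifer 31, and the highest bta-miR-183 count was 38 in FH heifer 22. Both heifers had 0 counts on the sparse members, as had SFH heifer 17, with 22 counts of bta-miR-34c. bta-miR-182 was highest in SFH heifer 28, at 62 counts. These lists had 0 calls, with median log2 fold changes of 0.34 for 2 red cell names, −0.91 for 2 miR-126 arms and 1.06 for the 1 muscle name tested, and 0.05 for the 8 leukocyte names. The part of other cell types in the counts of the members was not tested.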

How the data were processed

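The authors trimmed and mapped single-end small RNA reads of 14 PWBC libraries and deposited raw counts for 1207 rows under 1030 mature names, along with CPM for 341 miRNAs. The deposited CPM equalled counts scaled to the total over those 341 miRNAs to within 0.001, and 0 columns were unmatched. The members and marker lists were chosen with earlier results of these data known. miRNAs reaching a CPM of 1 in 7 or more of the 14 heifers were fitted with edgeR 4.0.16 (TMM, quasi-likelihood F-test, SFH relative to FH), with Benjamini-Hochberg adjustment over all tested. DESeq2 1.42.0 and limma 3.58.1 (R 4.3.3) served as alternatives. Single values were compared as log2(TMM-normalized CPM + 0.5) by exact permutation over 3432 arrangements, for members with counts in at least 2 heifers, and pairs by 100000 resamples (Python 3.11.15, scipy 1.17.1). edgeR was tested on simulated data, where most of the changes put in did not reach an adjusted p of at most 0.05. Named miRNAs were the members, other rows of their numbers, the marker lists and, for each tested member, the 3 most alike by Spearman's rho; miRNAs sharing a seed could not be listed because no mature sequences were at hand.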

Additional observations from a re-analysis of the deposited data

Results flagged for a closer look

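A heifer is listed here when its gap to the nearest other heifer of its group, divided by the range of the group on the log2 scale, exceeded 0.568, the critical value for 7 animals. Of 15 sets of a member in a group that had any count, 6 were flagged. Chance marks about 1 in 20 groups of continuous values, a rate that does not apply to sets made mostly of zeros. For miR-200c, SFH heifer 28 was low at 54.9 CPM. For miR-215, FH heifer 25 was low at 0.423 CPM. That value rests on 2 counts, and its gap was 0.605 of the range at the pseudocount of 0.5. Other pseudocounts were not tried for these flags. The rest lie in sets made mostly of zeros, where such a gap says little. These were miR-200b in FH heifer 27 at 3.29 CPM, miR-200b in SFH heifer 21 at 4.13 CPM, miR-200a in SFH heifer 21 at 0.376 CPM and miR-205 in SFH heifer 28 at 0.975 CPM. The last pair rest on 1 and 3 counts, in groups whose other 6 heifers were at 0.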

How the results depend on the processing

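edgeR called 13 miRNAs past both thresholds, 5 higher and 8 lower in SFH. The count was 23 with limma-voom (15 higher, 8 lower), 126 without the filter (81 higher, 45 lower) and 20 with every precursor row kept (4 higher, 16 lower), and 11 to 22 with single heifers left out. With library totals or upper quartile scaling the split was 7 higher and 7 lower, with DESeq2 5 and 11, with relative log expression scaling 5 and 10, with total count as a covariate 7 and 8, and with CPM of at least 1 in all heifers 4 and 11. The count of adjusted calls was 0, except 2 with DESeq2 (bta-miR-2478 and bta-miR-92b) and 1 with every precursor row kept (bta-miR-92b), named after their values were seen. The count of members called was 0 in each setting but the fit without the filter, where it was 2 of 9 (22.2%), beside 20.5% of all 614 miRNAs: miR-141 (edgeR adjusted p = 0.142), which rests on 2 FH heifers, and miR-205 (edgeR adjusted p = 0.212), which rests on 3 counts. With single heifers left out, the log2 fold change ran from 0.04 to 0.27 for miR-192, −0.03 to 0.22 for miR-194, −0.36 to −0.10 for miR-200c and 0.20 to 0.87 for miR-215. In the other settings these 4 kept their sign, with miR-215 between 0.40 and 0.98; it failed a filter of CPM of at least 1 in all heifers and has no value there. With single heifers left out, the difference in mean log2 level was −0.01 to 0.27 for miR-194, 0.03 to 0.30 for miR-192, −0.43 to −0.09 for miR-200c, 0.15 to 1.16 for miR-215 and −0.92 to −0.43 for miR-141. That of miR-122 was −0.57 to 0.15 and that of miR-200b −0.44 to 0.40, and miR-200b had −0.02 at a pseudocount of 0.1; leaving out single heifers in these tests was added after seeing the data. At 3 counts or more, miR-215 had 13 heifers, miR-200b 2 and miR-200a 0; at 10 or more, miR-122 and miR-141 had 1 each and miR-205 0. With both miR-194 rows summed, also added later, the median ratio of miR-192 to miR-194 was 0.76 and not 1.16. By Pearson's r and its unadjusted permutation p, the 3 correlations kept their side of the threshold with CPM on library totals and with a pseudocount of 2. Neither rho nor the adjusted p was rerun there. No paired analysis was possible because the groups share no heifer number. The cause of these shifts was not tested. At 7 heifers a group and these depths, differences in level of members near 0 depend on 1 or 2 heifers and on the pseudocount.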
